A study of Mus musculus with 10 samples.

Results

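The genes described here were chosen by name as a set for butyrate transport, sensing and oxidation in the colon: *Slc16a1*, *Slc5a8*, *Bsg*, *Ffar2*, *Ffar3*, *Hcar2*, *Acads* and *Acsf3*, of which *Acsf3* has another role. All 8 were found among the 56691 genes of the deposited table, and 7 of them had enough reads to be tested, *Ffar3* being the exception. Colon RNA was sequenced from 10 mice, of which 5 belonged to the DSS group (DSS-1 through DSS-5) and the other 5 to the ceAF group (ceAF-1 through ceAF-5). All were male C57/BL6 mice aged 8 weeks at the start, and all drank 3% dextran sulfate sodium (DSS), which injures the colon epithelium, for 7 days. The ceAF group then received chick early amniotic fluid (ceAF) by gavage at 15 mL/kg for 10 days, while the DSS group received no ceAF. Colon of mice without DSS was not analysed here, so each difference below sets ceAF after DSS against DSS alone.

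Butyrate is a short-chain fatty acid that bacteria release when they ferment fibre, and colonocytes burn it as a main fuel. It enters the cell through monocarboxylate carriers, acts from outside on G protein-coupled receptors of epithelial, enteroendocrine and immune cells, and inside the nucleus inhibits histone deacetylases. In mitochondria it is activated to butyryl-CoA and oxidized to acetyl-CoA, part of which can leave as ketone bodies. In colitis this use of butyrate as fuel is known to be impaired.

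None of the 7 genes tested differed between the groups after adjustment over all 16545 genes tested, by the quasi-likelihood test of edgeR at a Benjamini-Hochberg threshold of 0.05, and the share of all genes called was 0%. With DESeq2 in its place, 31 genes were called and again 0 of the butyrate genes. At an unadjusted p under 0.05, called the unadjusted limit below, 2 of the 7 were counted, *Hcar2* and *Ffar2*, against 6.93% of all genes. Both were lower in the ceAF group, a direction and limit that 3.67% of all genes met. The count was 1 without DSS-1, 1 without DSS-4, 3 without ceAF-1 and 2 without each of the other 7 mice. The study's methods give the same limit for p, without saying whether it is adjusted, together with a fold change of at least 1, which was not applied here and which *Ffar2*, at a log2 fold change of −0.70, would miss on the log2 scale. For the carriers, *Bsg*, *Acads* and *Acsf3*, the interval of the difference included 0. Over the 7 genes, 5 had a log2 fold change below 0 and the median was −0.13, while the median over all genes tested was 0.0076. Leaving out 1 mouse at a time moved the median of the butyrate genes tested from −0.31 (without ceAF-1) to −0.02 (without ceAF-4). The fit without ceAF-4 tested 8 genes, since *Ffar3* then passed the filter. Among the fits of the same 7 genes, the highest median was −0.043 (without DSS-3). The values of the ceAF and DSS mice overlapped for each of the 8 genes, as they did for most genes, since only 1.24% of all genes tested had groups that did not overlap.

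Levels of different genes were compared as FPKM, the deposited value that divides the count by exonic length and by the library's total. *Bsg* had the highest level, with a median of 346 FPKM and a range of 276 to 451 over the 10 mice. *Slc16a1* followed at a median of 76.6 FPKM (67.4 to 105), then *Slc5a8* at 55.1 FPKM (37.8 to 75.8) and *Acads* at 53.3 FPKM (40.5 to 93.8). Much lower stood *Acsf3* at 4.97 FPKM (3.52 to 5.34), *Ffar2* at 3.29 FPKM (1.93 to 6.25), *Hcar2* at 0.495 FPKM (0.25 to 23.3) and *Ffar3* at 0.305 FPKM (0.03 to 0.52). So both carriers and the dehydrogenase were abundant transcripts and the 3 receptors were scarce ones. The range of *Bsg* did not overlap that of *Slc16a1*, nor did that of *Acads* overlap that of *Acsf3*. The other neighbours in this order overlapped in range. Within single mice, *Slc16a1* was above *Slc5a8* in 9 of 10, and *Slc5a8* was above *Acads* in only 4 of 10, so the order of the last pair was not fixed.

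*Slc16a1* encodes MCT1, the proton-coupled carrier of butyrate and lactate, and lies at chromosome 3, 104545984 to 104565778 on the plus strand (ENSMUSG00000032902). For comparing mice, the counts, which totalled 14676471 to 19901549 per mouse, were scaled by library size to TMM-normalized CPM. *Slc16a1* measured 329, 351, 453, 437 and 294 CPM in DSS-1 to DSS-5 and 372, 332, 364, 322 and 307 CPM in ceAF-1 to ceAF-5. DSS-3 and DSS-4 were the highest, DSS-5 was the lowest, and the ceAF mice lay inside the range of the DSS mice. Means were 373 ± 69.3 CPM for DSS and 339 ± 27.6 CPM for ceAF (SD, n = 5 each). The log2 fold change was −0.14 ± 0.135 (SE), with a 95% interval of −0.43 to 0.16 (adjusted p = 0.885 by edgeR's quasi-likelihood test, exact permutation p = 0.381). Inside its span the table lists 2 predicted genes on the same strand, *Gm43581* and *Gm43585*, each with 0 to 5 counts per mouse against at least 4873 for *Slc16a1*.

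*Slc5a8* encodes SMCT1, the sodium-coupled carrier of the luminal membrane of colonocytes (chromosome 10, 88721854 to 88765377, plus strand, ENSMUSG00000020062). Its level was 194, 293, 249, 328 and 398 CPM in DSS-1 to DSS-5 and 268, 330, 302, 247 and 320 CPM in ceAF-1 to ceAF-5. The lowest and the highest mouse, DSS-1 and DSS-5, were both of the DSS group, and the ceAF mice lay between them. The groups averaged 293 ± 77.5 CPM with DSS alone and 293 ± 35.1 CPM with ceAF (SD, n = 5 each). The difference was close to nil, at a log2 fold change of 0.0038 ± 0.178 (SE) with a 95% interval of −0.39 to 0.40 (adjusted p = 0.999 by edgeR, exact permutation p = 0.833).

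Both carriers move butyrate into colonocytes. As a share of the summed FPKM of *Slc5a8* and *Slc16a1*, a measure chosen after the values were seen, *Slc5a8* made up 32.9%, 40.9%, 31.3%, 38.4% and 52.9% in DSS-1 to DSS-5. In ceAF-1 to ceAF-5 the share of *Slc5a8* was 37.4%, 45.2%, 40.8%, 38.9% and 46.4%. DSS-5 was the one mouse with more *Slc5a8* than *Slc16a1*, and the ceAF mice again lay within the DSS range. On average the share was 39.3% ± 8.57 with DSS alone and 41.7% ± 3.92 with ceAF (SD, n = 5 each, exact permutation p = 0.611).

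*Bsg* encodes basigin, the membrane glycoprotein that chaperones MCT1 to the cell surface (chromosome 10, 79540325 to 79547803, plus strand, ENSMUSG00000023175). It stood at 705, 664, 729, 804 and 518 CPM in DSS-1 to DSS-5 and at 916, 595, 588, 553 and 471 CPM in ceAF-1 to ceAF-5. ceAF-1 was the highest of the 10 mice, the other 4 ceAF mice were below 4 of the 5 DSS mice, and DSS-5 lay among them. With all mice the log2 fold change of *Bsg* was −0.13 ± 0.185 (SE), with a 95% interval of −0.54 to 0.28 (adjusted p = 0.928 by edgeR, exact permutation p = 0.452). Without ceAF-1 it was −0.31 and met the unadjusted limit, but not after adjustment (adjusted p = 0.444 by edgeR, where the other alternatives gave 0.758 or more).

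Among 6 other carriers and partners, 4 were tested, 0 were called after adjustment by edgeR and 1 met the unadjusted limit, *Emb*. The median log2 fold change of the 4 was −0.57, but −0.245 without DSS-1. *Emb* encodes embigin, a relative of basigin that escorts monocarboxylate carriers, and measured 35.5, 11.2, 13.2, 11.4 and 7.08 CPM in DSS-1 to DSS-5 against 4.27, 8.92, 9.21, 5.13 and 8.19 CPM in ceAF-1 to ceAF-5. DSS-1 was far above the rest, and DSS-5 lay among the ceAF mice. The log2 fold change of *Emb* was −1.13 ± 0.413 (SE, adjusted p = 0.656 by edgeR, exact permutation p = 0.0476), and without DSS-1 it was −0.58 and no longer met the unadjusted limit. *Abcg2*, an efflux pump of the luminal membrane and the most abundant gene of this list, had a median of 14.96 FPKM and a log2 fold change of 0.19 ± 0.187 (SE, adjusted p = 0.885 by edgeR). *Slc5a12*, a sodium-coupled relative of *Slc5a8*, had 0 counts in every mouse.

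**Figure D1:**
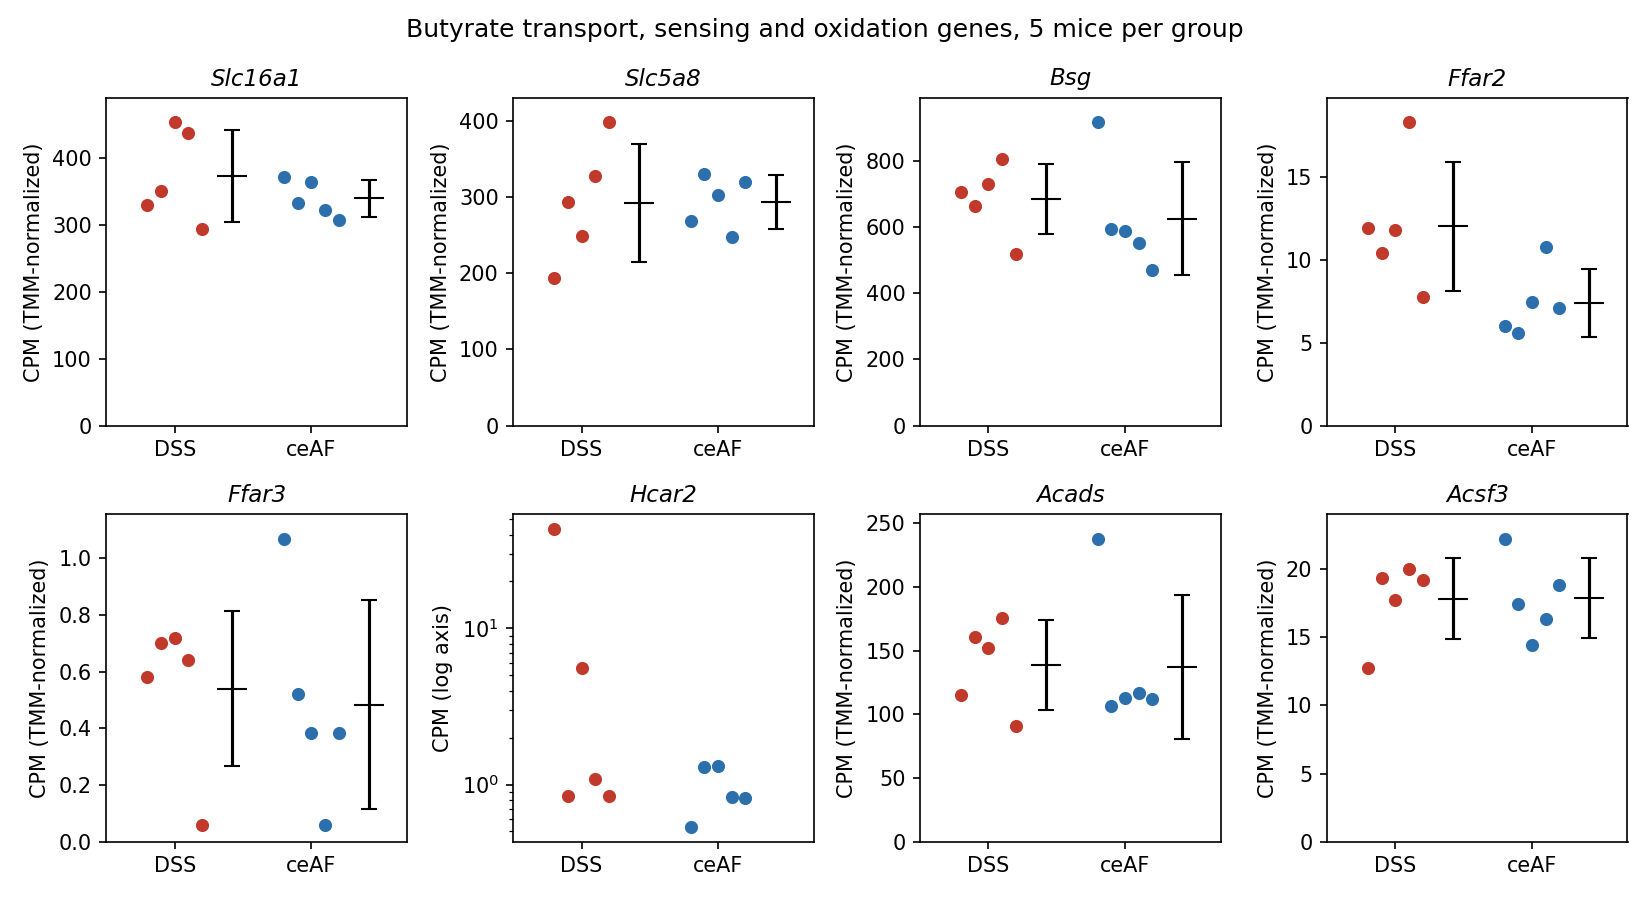
TMM-normalized CPM of the 8 genes in each mouse (points, 5 DSS mice in red and 5 ceAF mice in blue, ordered by mouse number), with the group mean and SD in black, except for *Hcar2*, which is on a log axis without mean. The groups overlap in each panel, *Hcar2* reaches 43.3 CPM in DSS-1 alone, and *Bsg* and *Acads* are highest in ceAF-1.

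*Ffar2* encodes GPR43, a receptor for short-chain fatty acids on enteroendocrine cells and on leukocytes such as neutrophils (chromosome 7, 30517773 to 30523200, minus strand, ENSMUSG00000051314). Its level was 11.9, 10.4, 11.8, 18.3 and 7.74 CPM in DSS-1 to DSS-5 and 6.03, 5.6, 7.46, 10.8 and 7.09 CPM in ceAF-1 to ceAF-5. DSS-4 was the highest mouse, and each of the 5 DSS mice was above 4 of the 5 ceAF mice. The groups overlapped through ceAF-4, which was above DSS-2 and DSS-5. *Ffar2* averaged 12.1 ± 3.89 CPM with DSS alone and 7.40 ± 2.05 CPM with ceAF (SD, n = 5 each). The log2 fold change was −0.70 ± 0.248 (SE) with a 95% interval of −1.25 to −0.155 (adjusted p = 0.656 by edgeR, exact permutation p = 0.0238). Without DSS-4 it was −0.50 and just missed the unadjusted limit, while without DSS-1 it was −0.70, as with all mice. In whole colon tissue, fewer cells of a type and less RNA per cell cannot be told apart.

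*Hcar2* encodes GPR109A, which binds butyrate and niacin and occurs on colonocytes, neutrophils, macrophages and adipocytes (chromosome 5, 124001633 to 124003562, minus strand, ENSMUSG00000045502). It measured 43.3, 0.849, 5.57, 1.09 and 0.84 CPM in DSS-1 to DSS-5 and 0.534, 1.3, 1.32, 0.835 and 0.825 CPM in ceAF-1 to ceAF-5. The underlying counts were 747 in DSS-1, 93 in DSS-3, and 7 to 24 in the other 8 mice. One mouse therefore held most of the reads of this gene, DSS-3 came next, and the remaining DSS mice lay within the range of the ceAF group. The fitted log2 fold change was −3.41 ± 1.13 (SE) with a 95% interval of −5.89 to −0.92 (adjusted p = 0.656 by edgeR), but the exact permutation test on log2 CPM gave p = 0.214. Without DSS-1 the log2 fold change was −1.10 and *Hcar2* no longer met the unadjusted limit, so that *Ffar2* was then the one gene of the 8 at that limit.

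*Ffar3* encodes GPR41, a receptor that prefers propionate and butyrate (chromosome 7, 30553755 to 30555603, minus strand, ENSMUSG00000019429). It had 10, 14, 12, 10 and 1 counts in DSS-1 to DSS-5 and 14, 8, 7, 1 and 7 counts in ceAF-1 to ceAF-5. Such counts were below the filter for testing, and the mice with a single read, DSS-5 and ceAF-4, came from both groups. The exact permutation test on log2 CPM gave p = 0.706, which does not show that the levels were equal. *Ffar3* passed the filter without DSS-1, DSS-5, ceAF-2, ceAF-3, ceAF-4 or ceAF-5 and did not meet the unadjusted limit in these fits.

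Of 6 neutrophil markers, 5 were lower in the ceAF group at the unadjusted limit and 0 after adjustment by edgeR, with a median log2 fold change of −3.96. Of these 5, *S100a9* had an exact permutation p of 0.0397, and the others had 0.0714 (*Retnlg*) to 0.159 (*Cxcr2*) by that test. Summed over the 6 genes they reached 1750, 123, 296, 201 and 549 CPM in DSS-1 to DSS-5 and 21.1, 249, 184, 130 and 212 CPM in ceAF-1 to ceAF-5. *Ly6g* was the most abundant of them, at a median of 182 FPKM, and was the one that missed the limit. DSS-1, the mouse with the most *Hcar2*, was also the highest in this sum, with 401 CPM of *S100a8* and 697 CPM of *S100a9*, which encode the calprotectin subunits. DSS-3, second in *Hcar2*, followed with 47.8 and 84.6 CPM of the same 2 genes, which were picked out after their values were seen. In the sum of the 6 markers, however, DSS-5 came second (549 CPM), with 0.84 CPM of *Hcar2*. *Ly6g* alone was at 229, 110, 128, 184 and 482 CPM in DSS-1 to DSS-5. In ceAF-1 to ceAF-5 it was at 19.4, 237, 172, 91.8 and 194 CPM. It made up most of the sum in each mouse except DSS-1 and DSS-3, so the sum there mainly follows *Ly6g*, not the other 5 markers. In each marker other than *Ly6g*, DSS-3 was second after DSS-1. It had 13.8, 3.77 and 18 CPM of *Csf3r*, *Cxcr2* and *Retnlg*, against 4.38, 0.66 and 1.5 CPM in DSS-5, which was close in *S100a8* (44.5 CPM). Without DSS-1, *S100a9* alone of the 6 met the unadjusted limit, and the median of the list was −1.52. No neutrophil marker was at 0 counts in every mouse.

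All 5 T cell markers (*Cd3d*, *Cd3e*, *Cd3g*, *Cd2* and *Cd5*) were lower in the ceAF group at the unadjusted limit, with 0 after adjustment by edgeR and a median log2 fold change of −1.22. Their sum was 59.2, 62.9, 62.9, 65.6 and 21.2 CPM in DSS-1 to DSS-5 and 23, 28.7, 24.4, 14.3 and 18 CPM in ceAF-1 to ceAF-5, with *Cd2* the most abundant by FPKM. DSS-5 thus lay among the ceAF mice in T cell markers as it did in *Emb*. The count stayed at 5 of 5 without DSS-5 or without ceAF-2 and was 4 of 5 without any other mouse, with *Cd5* missing the limit each time (exact permutation p = 0.167 for *Cd5* with all mice). Without DSS-5, *Cd3g* also passed adjustment by edgeR, and the median was −1.43. Macrophage markers were lower at that limit for 2 of 6 genes, *Adgre1* and *C1qa*, with sums of 83.1 to 160 CPM in the DSS group and 37.3 to 116 CPM in the ceAF group, and *C1qb* as the most abundant. Both were still counted without DSS-5 or ceAF-3, *Adgre1* alone without DSS-4 or ceAF-2, and 0 without DSS-1, DSS-2, DSS-3, ceAF-1, ceAF-4 or ceAF-5. Of the B cell markers, 0 of 5 met the limit, and their sum was 195 CPM in DSS-1 and 7.4 to 94.4 CPM in the other mice, with *Cd79a* on top. The median log2 fold change of the B cell markers was −0.69 with all mice, 0.61 without DSS-1 and −1.20 to −0.41 without each of the others. Enteroendocrine markers met it for 0 of 6 genes, at 117 to 324 CPM in the DSS group and 109 to 259 CPM in the ceAF group, led by *Pyy*. Adipocyte markers, of which 2 of 5 were tested and 0 met the limit, amounted to 6.48 to 35.1 CPM, mostly from *Cidec*, while the defining markers *Adipoq*, *Plin1* and *Lep* were near 0, with at most 22, 9 and 2 counts in any mouse. The part of these cell types in the levels of *Ffar2* and *Hcar2* was not tested.

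**Figure D2:**
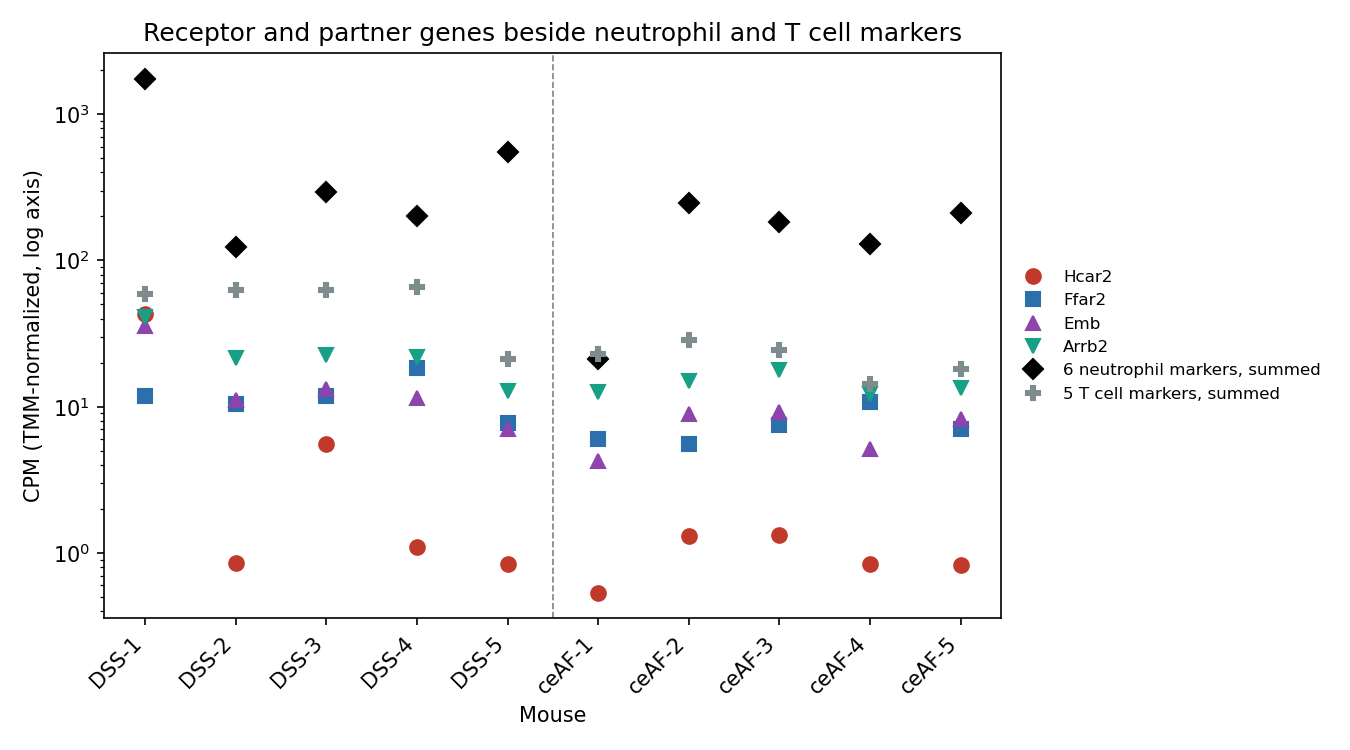
TMM-normalized CPM on a log axis in each of the 10 mice for *Hcar2*, *Ffar2*, *Emb* and *Arrb2*, with the summed CPM of 6 neutrophil markers (black diamonds) and 5 T cell markers (grey crosses), the dashed line parting the groups. DSS-1 is highest in *Hcar2*, *Emb*, *Arrb2* and the neutrophil sum, which reaches 1750 CPM there, while *Ffar2* is highest in DSS-4. *Ly6g* makes up most of the neutrophil sum in each mouse except DSS-1 and DSS-3.

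The list of related receptors and signal partners named 9 genes in the table, of which 8 were tested, 0 were called by edgeR after adjustment and 1 met the unadjusted limit. The gene was *Arrb2*, which encodes β-arrestin 2, an adaptor of activated receptors, at 41.1, 21.5, 22.4, 22 and 12.9 CPM in DSS-1 to DSS-5 and 12.6, 15.1, 17.8, 12.3 and 13.5 CPM in ceAF-1 to ceAF-5. Again DSS-1 was the highest and DSS-5 lay among the ceAF mice. *Arrb2* had a log2 fold change of −0.75 ± 0.259 (SE, adjusted p = 0.656 by edgeR, exact permutation p = 0.0317), and −0.46 without DSS-1. The median log2 fold change of the 8 was −0.27 with all mice, −0.00815 without DSS-1 and −0.36 to −0.151 without each of the others, and *Ffar4* met the limit as well without ceAF-4. *Gnai2*, the inhibitory G protein subunit and the most abundant of the list at a median of 71.4 FPKM, had a log2 fold change of −0.18 ± 0.13 (SE, adjusted p = 0.831 by edgeR). Butyrate inhibits class I histone deacetylases inside the cell and can activate the receptor PPARγ. Of the 4 class I histone deacetylase genes and *Pparg*, 0 of 5 met the unadjusted limit and the median log2 fold change was 0.023 (−0.0133 without ceAF-1 to 0.0496 without DSS-4), while *Hdac1*, the most abundant at a median of 40.8 FPKM, had a log2 fold change of −0.047 ± 0.163 (SE, adjusted p = 0.977 by edgeR).

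*Acads* encodes the short-chain acyl-CoA dehydrogenase, which catalyses the first oxidation step of butyryl-CoA (chromosome 5, 115248358 to 115257405, minus strand, ENSMUSG00000029545). It stood at 115, 161, 152, 176 and 90.7 CPM in DSS-1 to DSS-5 and at 238, 107, 113, 117 and 112 CPM in ceAF-1 to ceAF-5. The other 4 ceAF mice lay within 107 to 117 CPM, ceAF-1 was above each DSS mouse, and DSS-5 was the lowest of all. The group means were 139 ± 35.1 CPM for DSS and 138 ± 56.5 CPM for ceAF (SD, n = 5 each). Its log2 fold change was −0.015 ± 0.256 (SE), with a 95% interval of −0.58 to 0.55 (adjusted p = 0.995 by edgeR, exact permutation p = 0.857), and −0.31 without ceAF-1. Among the 8 genes, *Acads* was the only one that the deposited annotation placed in the KEGG pathway of butanoate metabolism. That annotation put *Ffar2* and *Hcar2* in cAMP signaling and gave 4 of the 8 genes no pathway.

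Most of the other genes of mitochondrial β-oxidation were also highest in ceAF-1, as *Acads* was. All 19 were tested, 0 met the adjusted or the unadjusted limit with edgeR, and 12 of the 19 log2 fold changes were above 0, with a median of 0.075. ceAF-1 was the highest of the 10 mice in 13 of these 19 genes, and DSS-1 was the lowest in 12 of them. The same mice were at the ends of other lists too, in some the other way round. In macrophage markers ceAF-1 was lowest and DSS-1 highest in 6 of 6. In neutrophil markers each held for 5 of 6, but not for the same 5. ceAF-1 was lowest in 4 of 5 B cell and 5 of 5 fibroblast markers, and DSS-1 highest in 5 of 5 and 4 of 5. In 4 of 8 genes of mitochondrial fatty acid synthesis and 3 of 5 histone deacetylase and *Pparg* genes, ceAF-1 was the highest. DSS-1 was lowest in 4 of those 8 and 0 of those 5. In the 5 T cell markers, ceAF-1 was lowest in 0 and DSS-1 highest in 2. The share over all genes is not given here. Summed, the 19 β-oxidation genes reached 1980, 2790, 2770, 2940 and 2090 CPM in DSS-1 to DSS-5 and 3540, 2400, 2780, 2260 and 2390 CPM in ceAF-1 to ceAF-5. The most abundant was *Acadl*, the long-chain acyl-CoA dehydrogenase gene, at a median of 140 FPKM and a log2 fold change of 0.075 ± 0.143 (SE, adjusted p = 0.953 by edgeR). The median of the 19 was 0.00553 without DSS-1 and 0.151 without ceAF-4. Without ceAF-1 it was −0.064, and *Etfb*, an electron transfer flavoprotein gene, met the unadjusted limit with a log2 fold change of −0.47.

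Before oxidation, butyrate must be joined to coenzyme A by an acyl-CoA synthetase. Of 9 genes for synthetases of short and medium chains, 4 were tested and 0 met the adjusted or the unadjusted limit with edgeR, with a median log2 fold change of 0.16. This median was 0.0306 without DSS-1, 0.0497 without ceAF-1 and 0.284 without ceAF-4. *Acsm1* had 0 counts in every mouse. *Acsf2*, the most abundant of the list at a median of 21.6 FPKM, measured 48.4, 111, 122, 105 and 39.5 CPM in DSS-1 to DSS-5 and 196, 55.6, 80.4, 64.1 and 66 CPM in ceAF-1 to ceAF-5. Its highest mouse was ceAF-1 and its lowest DSS-5, as for *Acads*, and its log2 fold change was 0.12 ± 0.413 (SE, adjusted p = 0.977 by edgeR).

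*Acsf3* encodes the mitochondrial malonyl-CoA synthetase, which feeds fatty acid synthesis inside mitochondria and is not an activator of butyrate (chromosome 8, 123502225 to 123544619, plus strand, ENSMUSG00000015016). Its level was 12.7, 19.3, 17.7, 20 and 19.2 CPM in DSS-1 to DSS-5 and 22.2, 17.4, 14.4, 16.3 and 18.8 CPM in ceAF-1 to ceAF-5. DSS-1 was the lowest mouse, ceAF-1 the highest, and the other 8 were intermixed. The log2 fold change was 0.0015 ± 0.157 (SE), with a 95% interval of −0.34 to 0.35 (adjusted p = 0.999 by edgeR, exact permutation p = 0.984). In the list of mitochondrial fatty acid synthesis, 8 genes were tested and 0 met the adjusted or the unadjusted limit with edgeR, with a median log2 fold change of 0.027. That median was 0.121 when DSS-5 was left out and −0.0146 when DSS-1 was, and *Cbr4* met the unadjusted limit as higher without DSS-3. *Mecr*, the enoyl reductase gene of that pathway, had the highest median of the list at 11.23 FPKM, nearly level with *Ndufab1* at 11.22 FPKM. The log2 fold change of *Mecr* was 0.066 ± 0.25 (SE, adjusted p = 0.979 by edgeR).

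**Figure D3:**
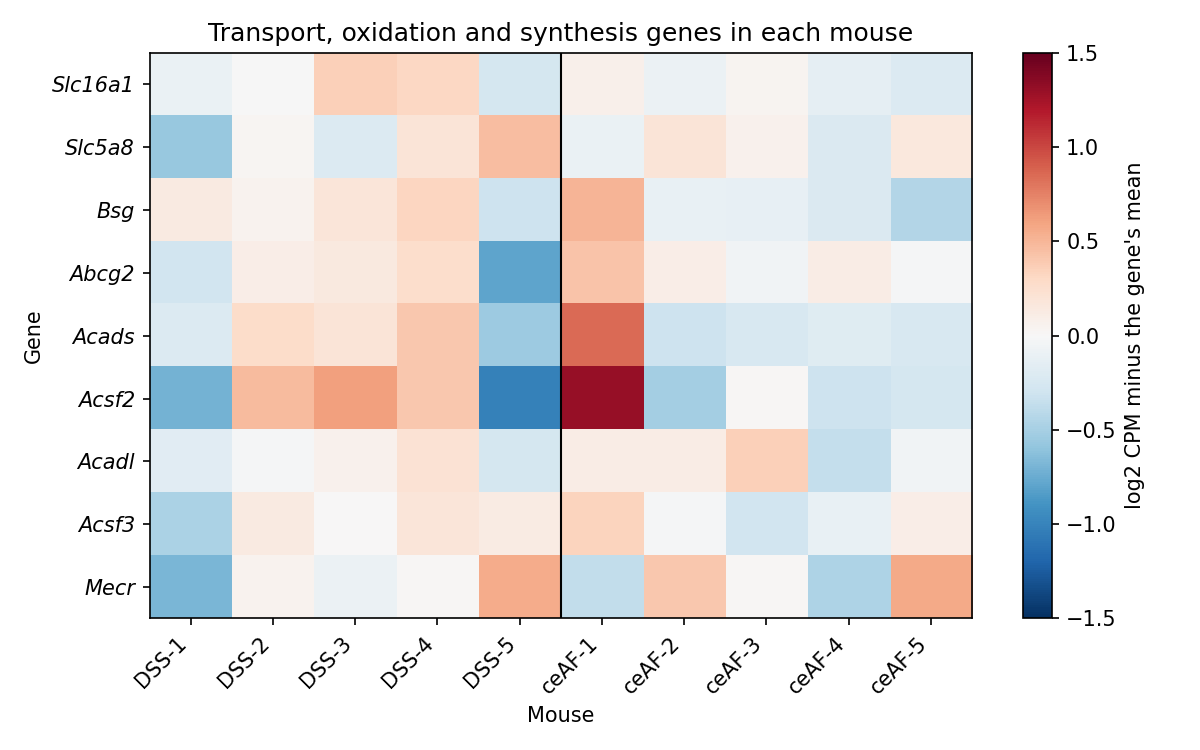
Log2 CPM of 9 genes in each mouse minus the mean of the gene over the 10 mice, as colours (red above the mean, blue below), with the black line parting the DSS mice on the left from the ceAF mice on the right. *Acads*, *Acsf2* and *Bsg* are highest in ceAF-1, with *Acsf2* running from 39.5 CPM in DSS-5 to 196 CPM in ceAF-1.

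Other measures of ceAF-1 are given beside these levels. It had the smallest total, 14676471 counts, and 9.66% of its counts were from mitochondrial genes, a share that was 9.74% in ceAF-5 and 4.53% to 7.24% in the other 8 mice, with the 3 highest shares in ceAF mice. Pairs of mice within a group were also compared by a chi-square per gene. This was 102 to 133 between ceAF-1 and each other ceAF mouse, and 13.2 to 87.5 for the remaining pairs. *Hoxb6*, which marks proximal colon, and *Hoxb13* and *Hoxd13*, which mark distal colon, were chosen after their values were seen. *Hoxb6* was at 1.27, 25.3, 36.6, 22.4 and 0.96 CPM in DSS-1 to DSS-5 and at 91, 0.846, 17.4, 2.98 and 0.88 CPM in ceAF-1 to ceAF-5. *Hoxb13* was at 76.3, 95.2, 93, 112 and 206 CPM in DSS-1 to DSS-5 and at 6.18, 215, 149, 10.2 and 185 CPM in ceAF-1 to ceAF-5. *Hoxd13* was at 121 CPM in ceAF-2 and 109 CPM in ceAF-3 and at 0 to 10.5 CPM in the other 8 mice. ceAF-1 was the highest in *Hoxb6* and the lowest in *Hoxb13*, ceAF-4, at 2.98 and 10.2 CPM, was low in both, and DSS-5, ceAF-2 and ceAF-5 combined low *Hoxb6* with high *Hoxb13*. The part of the colon segment in these levels was not tested.

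Surface colonocyte markers met the unadjusted limit for 0 of 7 genes, with sums of 4960 to 8490 CPM in the DSS group and 5420 to 8000 CPM in the ceAF group and *Krt20* as the most abundant. Of the pan-epithelial markers, 0 of 7 met it, at 9340 to 14600 CPM and 11700 to 14000 CPM, led by *Krt8*. Smooth muscle markers ranged from 1040 to 2210 CPM in the DSS group and from 972 to 2410 CPM in the ceAF group, led by *Acta2*, and fibroblast markers from 269 to 705 CPM and from 97.9 to 476 CPM, led by *Dcn*, with 0 of 5 genes at the unadjusted limit in each list. After adjustment by edgeR the count was 0 in these 4 lists as well. All 5 fibroblast markers had a log2 fold change below 0, with a median of −0.37 that was 0.01 without DSS-1 and −0.136 without ceAF-1, and *Lum* met the unadjusted limit as lower without DSS-4, without DSS-5 and without ceAF-4. Without ceAF-1, *Aqp8* met it as higher and *Guca2a* as lower. Their part in the levels of *Slc16a1*, *Slc5a8* and *Acads* was not tested.

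The genes whose pattern over the 10 mice was most like that of each gene were taken by the smallest root mean square distance between log2 CPM values centred on each gene's mean. *Slc16a1* was closest to *Setd3* (0.11) and *1810009A15Rik* (0.112), *Slc5a8* to *Mrps27* (0.0888) and *Pafah2* (0.0945), and *Bsg* to *Pdcd6* (0.0722) and *Edf1* (0.0739), in log2 units. *Ffar2* was closest to *Chst1* (0.212), a sulfotransferase gene. *Hcar2* was closest to *Il1a* (0.342), the interleukin-1α gene, and to *G0s2* (0.406), which encodes an inhibitor of lipolysis. *Acads* lay next to *Slc25a10* (0.0859), the gene of the mitochondrial dicarboxylate carrier, and *Gal3st1* (0.101). *Acsf3* lay next to *Echs1* (0.0958), the short-chain enoyl-CoA hydratase gene of β-oxidation, and *Abhd11* (0.0988). As the smallest of the distances to the tested genes with a symbol outside the 8, they are a description, and the SD of the gene itself over the mice was 1.86 for *Hcar2*, 0.526 for *Ffar2* and 0.205 for *Slc16a1*.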

How the data were processed

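Poly(A) RNA of the colon of 10 mice was sequenced, and groups and mouse numbers were taken from the sample labels. The authors deposited 1 table with the count of reads on each gene, not normalized, and the FPKM of each gene in each mouse. Each FPKM equalled the count divided by exonic length and total count, within 0.01. The submitters' processing notes name cutadapt 1.9.1 and HISAT2 2.2.1. The counting program, its strand setting and the genome build are not given in the sources used here, so positions are printed as deposited. Totals were 16275884 to 19901549 counts per mouse in the DSS group and 14676471 to 18811795 in the ceAF group.

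Genes were kept by filterByExpr with a minimum count of 10, scaled by TMM and tested two-sided by the quasi-likelihood test of edgeR 4.0.16 in R 4.3.3, and p-values were adjusted over all of these by Benjamini-Hochberg. The SE was derived from the F statistic and the 95% interval from the SE. Exact permutation tests were two-sided over the 252 assignments of 5 of 10 mice, on log2 CPM with a prior count of 1, and the smallest p they can give is 0.00794. They were not adjusted over the 8 genes. Alternatives used DESeq2 1.42.0 and limma 3.58.1, other filters and scaling, a replicate block and leaving out each mouse. Leaving out each mouse for the counts of the gene lists was added after the data were seen. The edgeR steps were tested on simulated data, and no result of that check is given or used here. Plots used Python 3.11.15 and matplotlib 3.10.9.

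The genes and lists were chosen with earlier results of these data known. Named from each pathway list were the gene with the highest median FPKM and those at an unadjusted p under 0.05, from each marker list the most abundant gene and any at 0 counts in every mouse, and for each of the genes tested the 2 nearest genes. Of these, 2 are not reported here. Replicates were taken as separate mice from their numbered labels.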

Additional observations from a re-analysis of the deposited data

Results flagged for a closer look

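In a group of 5, a mouse stood apart where its gap to the nearest other mouse exceeded 0.71 of the range of the group. This was looked for in the CPM of the 8 genes and of 8 named pathway genes in both groups, and it held in 6 of 32 cases. For normally distributed values about 1 in 20 would be expected, or 1.6 of 32, but normality was not tested for these CPM values and some of these genes were chosen by their p, so 1.6 is no valid chance count here. ceAF-1 was far above its group in *Acads* (ratio of gap to range 0.924), *Acsf2* (0.824) and *Bsg* (0.723). DSS-1 was far above the DSS group in *Hcar2* (0.889) and *Emb* (0.786). DSS-5 was far below the DSS group in *Ffar3* (0.789), where it had 1 count. These 6 cases are not independent, since 3 of them come from ceAF-1 and 2 from DSS-1.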

How the results depend on the processing

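The 8 genes had 0 calls after adjustment in each alternative run, while over all genes DESeq2 called 31 and the fits that left out each mouse in turn called 0 to 3, the 3 without DSS-5. At the unadjusted limit, 1146 genes were counted, against 1733 with no filter on low counts, 694 with the replicate block and 712 (without DSS-1) to 1872 (without ceAF-1) when each mouse was left out. Of these genes 47% were higher in the ceAF group, but 30.5% and 29.4% with limma-trend on log2(FPKM + 1) and log2(FPKM + 0.1), 50.9% with the replicate block and 41% (without DSS-4) to 55.9% (without ceAF-3) when each mouse was left out. The share was above 50% in 5 of those 10 fits, without DSS-1, DSS-3, DSS-5, ceAF-2 or ceAF-3. *Hcar2* and *Ffar2* gave a count of 2, which was 1 with at least 10 counts in every mouse (*Hcar2* was then not tested), 1 with limma-trend at either pseudocount and 1 to 3 when each mouse was left out. With the replicate block the count was also 1, and the log2 fold change was −1.44 for *Hcar2* and −0.69 for *Ffar2*. The correlation between mice of the same number was r of −0.249, −0.136, −0.0043, −0.159 and 0.286 for numbers 1 to 5. These values cannot decide whether the numbers pair mice, since mice that share a batch need not correlate. The main test used no pairing. *Ffar2* stayed lower in every alternative, from −0.87 to −0.50 when each mouse was left out. *Hcar2* ranged from −3.69 to −1.10 over those fits and was −1.08 and −1.55 with limma-trend at pseudocounts of 1 and 0.1. The sign turned for 3 genes whose log2 fold change was near 0. *Slc5a8* was −0.0035 with DESeq2 and −0.11 to 0.15 when each mouse was left out. *Acads* ranged from −0.31 to 0.085 over those fits. *Acsf3* was −0.00044 with at least 10 counts in every mouse, −0.0064 with DESeq2, −0.016 and −0.019 with limma-trend at pseudocounts of 1 and 0.1, and −0.094 to 0.077 when each mouse was left out. Where these changes follow from leaving out a mouse or a gene, the construction shows the cause, and otherwise the cause was not tested. *Ffar3* had 1 to 14 counts per mouse.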
